A study of Homo sapiens with 20 samples.

Results

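The genes described here encode 9 collagen chains that do not form the classical fibrils: COL6A1, COL6A2 and COL6A3 of type VI, COL12A1 and COL16A1 of the fibril-associated group, COL13A1 and COL17A1 of the transmembrane group, and COL7A1 and COL8A1, which form anchoring fibrils and short-chain networks. They were taken by name from a table of read counts per Entrez gene, in which the 9 genes make up 9 of 27864 rows. All 9 passed the filter on low counts, among 16323 genes tested. The cells were SUM159PT, an established human breast cancer line with mesenchymal features, sequenced as 20 stranded mRNA libraries in 7 groups. The question of the design was how culture as tumorspheres and loss of NNMT, the enzyme that methylates nicotinamide, change the transcriptome.

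Unmodified cells (wt) and 2 edited pools were each grown attached to plastic (2D) and as secondary tumorspheres in suspension (3D), with 3 libraries in each of these 6 groups. The pool labelled KOs was made with 1 guide RNA at the transcription start of NNMT, and the pool KOd with 2 guide RNAs that remove its exon 1. Each pool is a mixture of several edited clones, whose number the labels do not give, so a pool stands for those clones and not for independent edits of the whole line. The 2D medium was Ham's F12 with 5% serum, 5 µg/ml insulin and 1 µg/ml hydrocortisone, and cells were harvested at 80% confluency. The 3D medium was serum-free DMEM/F12 with B27, 20 ng/ml EGF and 20 ng/ml basic FGF, and spheres were grown through 2 rounds of 6 days. The remaining group of 2 libraries held attached wt cells that were moved to the tumorsphere medium at 50% confluency and harvested at 80%. All groups share the cell line and the antibiotics, and the series' design text gives different RNA extraction kits for attached cells and for spheres, so kit and culture cannot be told apart.

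Type VI collagen is built from 3 different chains, encoded by COL6A1, COL6A2 and COL6A3, which assemble into a heterotrimer inside the cell and then into beaded microfilaments around it. Types XII and XVI are homotrimers that sit on the surface of other matrix fibrils, type VII forms the anchoring fibrils under epithelia, and type VIII forms networks below endothelium and in remodelling tissue. Types XIII and XVII span the plasma membrane with their collagen domains outside and can be shed by proteases, and type XVII is a part of the hemidesmosome, the anchor of epithelial cells to the basement membrane.

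The regions just upstream of 4 genes are printed because the results turn on these genes: COL6A2 for the rise in tumorspheres, COL6A3 as the type VI chain that departs from it, COL12A1 for the difference between wt and the pools, and COL13A1 for both. Each run holds the 250 bases before the annotated start, read 5′ to 3′ on the strand of the gene, from RefSeq on GRCh38.p14. They lie at chr21:46097862-46098111 on the plus strand (COL6A2), chr2:237414165-237414414 on the minus strand (COL6A3), chr6:75206054-75206303 on the minus strand (COL12A1) and chr10:69801656-69801905 on the plus strand (COL13A1). Capitals mark matches, on either strand, to any of 6 searched motifs that are spelled out after the sequences.
COL6A2: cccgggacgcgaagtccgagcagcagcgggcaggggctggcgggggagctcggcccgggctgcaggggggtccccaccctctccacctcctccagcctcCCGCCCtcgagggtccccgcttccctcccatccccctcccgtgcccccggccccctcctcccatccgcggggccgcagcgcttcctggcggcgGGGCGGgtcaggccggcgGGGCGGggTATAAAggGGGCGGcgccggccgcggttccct
COL6A3: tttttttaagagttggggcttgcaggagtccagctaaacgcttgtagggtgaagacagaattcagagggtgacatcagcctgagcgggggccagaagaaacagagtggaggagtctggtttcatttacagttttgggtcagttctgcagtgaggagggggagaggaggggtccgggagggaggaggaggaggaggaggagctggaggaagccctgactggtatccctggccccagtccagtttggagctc
COL12A1: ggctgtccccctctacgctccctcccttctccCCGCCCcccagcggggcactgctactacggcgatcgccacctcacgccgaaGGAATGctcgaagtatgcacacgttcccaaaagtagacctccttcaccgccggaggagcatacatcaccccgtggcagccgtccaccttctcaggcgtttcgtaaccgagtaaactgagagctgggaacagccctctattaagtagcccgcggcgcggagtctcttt
COL13A1: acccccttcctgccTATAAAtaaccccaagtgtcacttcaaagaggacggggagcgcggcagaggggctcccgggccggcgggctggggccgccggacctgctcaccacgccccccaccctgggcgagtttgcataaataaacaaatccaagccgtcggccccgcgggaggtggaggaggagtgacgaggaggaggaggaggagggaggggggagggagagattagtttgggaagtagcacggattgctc
The COL6A2 window had 79.6% GC, with 4 GC boxes and a TATA box 32 to 27 bases before the start. The COL6A3 window, at 56% GC, held none of the 6 motifs, so these 2 genes of the same trimer differ in the letters searched for. COL12A1 had 1 GC box and 1 TEAD match 167 to 162 bases before the start, and COL13A1 had a TATAAA match 236 to 231 bases before it. The motifs were set against 35116 RefSeq promoters of the same length, whose median GC content was 58%. The GC box was searched as GGGCGG and found in 42.6% of those promoters. The TATA box was searched as TATAAA, present in 10.7%, and the CCAAT box by its own letters, present in 32%. The AP-1 motif was TGANTCA and occurred in 6.57% of promoters. The TEAD motif was GGAATG and occurred in 11.9%, and the E-box bound by ZEB factors was CACCTG, with 17.5%. Windows of 7 of the 9 genes were matched in the table, and a match is a run of letters, with no measurement of binding behind it.

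Libraries held 26396964 to 43744817 counts, with the 6 libraries labelled KOs at 37316513 or more and the other 14 at 32016875 or less. Ribosomal RNA genes took 0.926 to 2.7% of counts in the former and 2.82 to 8.46% in the latter, so depth and rRNA share differ together with the KOs label, and their part in the comparisons with KOs was not tested. NNMT was at 117 ± 13.3 CPM (CPM are counts relative to library size, here with sizes adjusted by TMM, the trimmed mean of M-values; mean ± SD, n = 3) in wt 2D and at 4.55 ± 0.139 in KOd 2D, a log2 difference of -4.68 ± 0.21 (SE; edgeR quasi-likelihood, Benjamini-Hochberg adjusted p = 3.7e-11). In the libraries labelled KOs it was at 106 ± 27.6 in 2D and 84.8 ± 1.75 in 3D, with adjusted p of 0.52 and 0.30 against wt in the same fit, so NNMT mRNA does not check that label, and the group is called labelled KOs throughout. The attached labelled KOs libraries varied most, with median distances to their own replicates (root mean square difference in log2 CPM) of 0.780, 0.598 and 0.647 for A, B and C. Replicate C was the most distant library of its group among the wt spheres, at 0.605, and among the KOd spheres, at 0.476. The epithelial genes EPCAM and CDH1 stayed at or below 0.426 and 0.16 CPM in all libraries, ESR1 at or below 0.315, while KRT8 reached 202 to 1119 and VIM 2537 to 5967. Of the other keratins listed, KRT18 was at 147 to 476 CPM, KRT5 at 0.15 to 60.5, KRT14 at 0 to 14.6 and KRT19 at or below 0.592. The labels leave unsaid whether the replicates are separate cultures, and the p-values reflect the variation among these libraries, which may be technical. In these bulk libraries, fewer cells with a transcript and less RNA per cell cannot be told apart.

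Per kilobase of gene length, the order of the 9 genes differed between attached cells and spheres of wt. In 2D the mean levels in CPM per kilobase were 311 ± 21.8 for COL6A3, 216 ± 15.1 for COL8A1, 36.3 ± 10.8 for COL12A1, 23.8 ± 3.43 for COL6A2, 20.4 ± 1.51 for COL16A1, 16 ± 1.85 for COL6A1, 8.62 ± 0.886 for COL7A1, 2.08 ± 0.289 for COL13A1 and 0.599 ± 0.0186 for COL17A1 (SD, n = 3). In 3D the 3 type VI chains led, with COL6A3 at 743 ± 63.1, COL6A1 at 634 ± 85.8 and COL6A2 at 417 ± 59.4. Behind them came COL7A1 at 66.5 ± 6.2, COL13A1 at 44.6 ± 19.7, COL16A1 at 35.8 ± 8.61, COL8A1 at 33.3 ± 4.19 and COL12A1 at 31 ± 0.99, and COL17A1 stayed last at 0.518 ± 0.026. The plot of the 9 genes by group shows these levels without division by length.

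**Figure D1:**
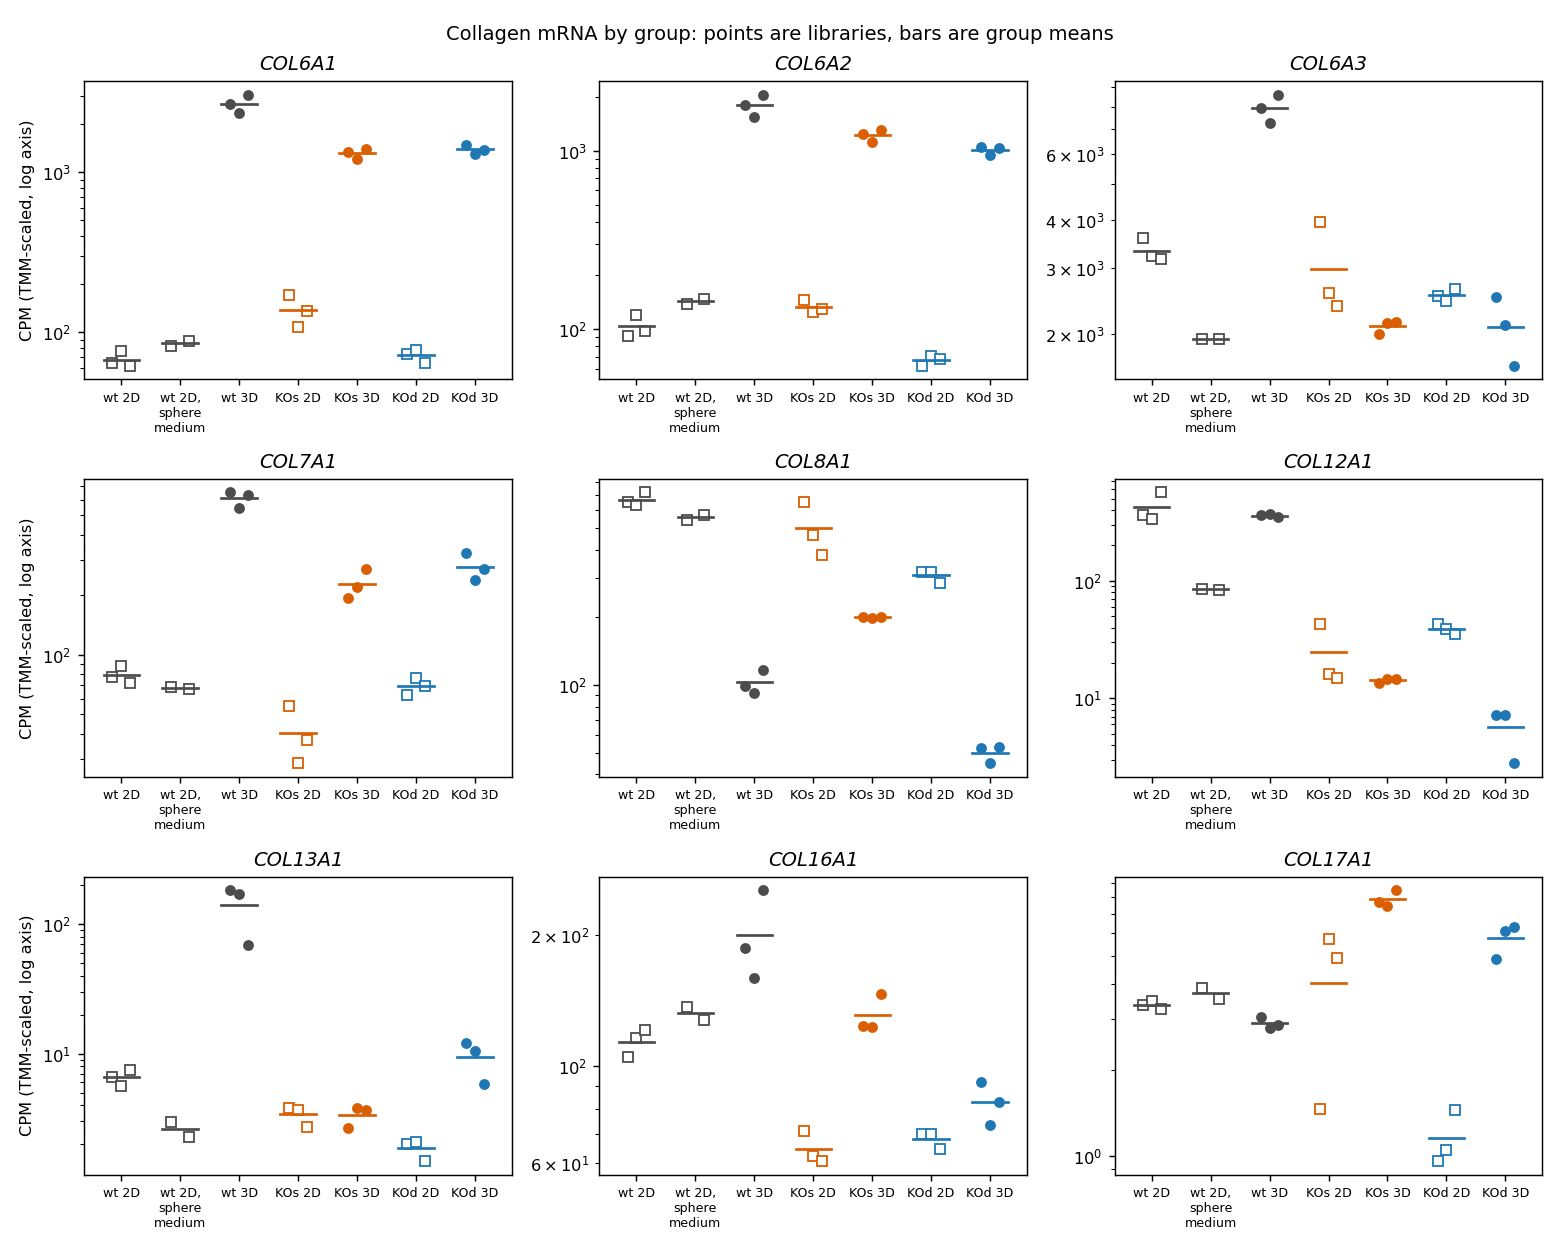
Expression of the 9 collagen genes in the 7 groups, in CPM after TMM scaling on a log axis that differs between panels. Points are libraries (open squares attached culture, filled circles spheres) and bars are group means. COL6A1 and COL6A2 are higher in all 9 sphere libraries than in all 11 attached ones, COL8A1 is lower in them, COL12A1 is higher in every wt library than in every pool library, and COL13A1 is high in wt spheres.

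Wt tumorspheres carried 6 of the 9 collagens at higher levels than attached wt cells and 1 at lower, at an adjusted p under 0.05. Over all genes tested 33.3% were higher and 30.4% lower in this comparison, and the median log2 fold change was 1.26 over the 9 genes against 0.04 over all genes. COL6A1, COL6A2, COL6A3, COL7A1, COL13A1 and COL16A1 rose, COL8A1 fell, and COL12A1 and COL17A1 did not pass. In labelled KOs 5 of 9 were higher in spheres and 3 lower, beside 32.9% and 32.1% of all genes, with medians of 0.97 and 0.02. With these 2 groups fitted alone, 5 of the 9 passed in place of 8. Scaling by library totals alone shifted the median of all genes in labelled KOs by 0.22 and turned the split of all calls to 6762 higher and 3565 lower, while the 9 genes then gave 5 higher and 1 lower. In KOd 5 of 9 were higher and 2 lower, beside 35.2% and 31.2% of all genes, with medians of 2.00 and 0.07.

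COL6A1 (Entrez 1291, chromosome 21, 45981770 to 46005048), the α1 chain of type VI, was the member with the largest rise in wt spheres. Its level was 64.1, 76.5 and 62 CPM in the wt 2D libraries A, B and C, and 2651, 2329 and 3053 CPM in the wt 3D libraries. In labelled KOs the 2D libraries had 170, 108 and 135 CPM and the 3D libraries 1335, 1207 and 1397 CPM. In KOd they had 73.3, 77.3 and 64.2 CPM in 2D and 1486, 1308 and 1366 CPM in 3D. Every sphere library thus lay above every attached library, and the wt spheres lay above the spheres of both pools, which overlapped each other. The log2 fold change from 2D to 3D was 5.31 ± 0.17 in wt (39.6-fold; SE, edgeR, adjusted p = 1.0e-13), 3.25 ± 0.15 in labelled KOs (adjusted p = 1.5e-11) and 4.28 ± 0.16 in KOd (adjusted p = 6.2e-13). In the same edgeR fit the sphere response of labelled KOs was smaller than that of wt by a log2 difference of -2.06 ± 0.20 (adjusted p = 1.0e-06), and that of KOd by -1.03 ± 0.20 (adjusted p = 8.1e-04). In attached cells COL6A1 was 2.04-fold higher in labelled KOs than in wt (log2 1.03 ± 0.14, edgeR adjusted p = 1.1e-05), so the labelled KOs response starts from a higher level, while KOd and wt overlapped (0.08 ± 0.14, adjusted p = 0.67). In spheres both pools were lower than wt, with log2 differences of -1.03 ± 0.14 in labelled KOs (adjusted p = 7.0e-06) and -0.95 ± 0.14 in KOd (adjusted p = 4.1e-05, edgeR).

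COL6A2 (Entrez 1292, chromosome 21, 46098112 to 46132848) encodes the α2 chain and begins 93064 bases after the end of COL6A1. It had 91.9, 120 and 98.1 CPM in the wt 2D libraries and 1802, 1556 and 2071 CPM in wt 3D. Labelled KOs had 145, 125 and 130 CPM in 2D and 1246, 1125 and 1315 CPM in 3D. KOd had 62.4, 71 and 68.2 CPM in 2D and 1048, 943 and 1039 CPM in 3D. The groups were ordered in spheres as wt, labelled KOs and KOd without overlap. From 2D to 3D the log2 fold change was 4.13 ± 0.13 in wt (adjusted p = 1.0e-13), 3.20 ± 0.12 in labelled KOs (adjusted p = 1.8e-12) and 3.91 ± 0.13 in KOd (adjusted p = 2.4e-13, all edgeR). The response of labelled KOs was smaller than that of wt by -0.93 ± 0.16 (adjusted p = 3.0e-04), and the difference for KOd was -0.22 ± 0.16 (adjusted p = 0.33). In 2D it was lower in KOd than in wt (log2 -0.62 ± 0.12, edgeR adjusted p = 2.8e-04) and higher in labelled KOs (0.37 ± 0.11, adjusted p = 0.012). The latter call did not pass without wt 2D replicate A (0.29) or wt 2D replicate C (0.33).

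COL6A3 (Entrez 1293, chromosome 2, 237324018 to 237414164) encodes the large α3 chain and behaved otherwise. Its level was 3590, 3222 and 3158 CPM in wt 2D and 7963, 7268 and 8618 CPM in wt 3D. Labelled KOs had 3973, 2568 and 2375 CPM in 2D and 2003, 2141 and 2155 CPM in 3D. KOd had 2528, 2442 and 2635 CPM in 2D and 2510, 2120 and 1651 CPM in 3D. The wt spheres stood above all other libraries, and the sphere libraries of labelled KOs lay below their attached libraries, while those of KOd overlapped theirs. COL6A3 rose 2.39-fold in wt spheres (log2 1.26 ± 0.16, edgeR adjusted p = 3.4e-06). In labelled KOs it was lower in spheres by -0.50 ± 0.16 (adjusted p = 0.012), a value that was -0.23 and did not pass without labelled KOs 2D replicate A, and -0.29 and did not pass under scaling by library totals. In KOd the log2 difference was -0.28 ± 0.16 (adjusted p = 0.14). The difference from the wt response was -1.76 ± 0.23 in labelled KOs (adjusted p = 2.1e-05) and -1.53 ± 0.23 in KOd (adjusted p = 8.6e-05), by the interaction term in edgeR. In spheres COL6A3 was 3.79-fold lower in labelled KOs and 3.8-fold lower in KOd than in wt, each with a log2 fold change of -1.92 ± 0.17 (edgeR adjusted p = 2.9e-08 and 8.8e-08). In 2D neither pool passed against wt, with log2 differences of -0.16 ± 0.16 in labelled KOs (adjusted p = 0.42) and -0.39 ± 0.16 in KOd (adjusted p = 0.058). The former was -0.43 and passed without labelled KOs 2D replicate A, and the latter passed in 10 of 30 alternative settings.

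Because the trimer takes 1 of each chain, the ratio of the chains per kilobase was also followed. In wt 2D there was 19.6 ± 2.78 times as much COL6A3 as COL6A1 per kilobase (SD, n = 3), and in wt 3D 1.18 ± 0.0557 times as much. Labelled KOs went from 8.5 ± 1.36 in 2D to 0.634 ± 0.0583 in 3D, and KOd from 14.1 ± 1.9 to 0.595 ± 0.102. COL6A3 was thus the more abundant mRNA of the 2 in all attached libraries and in wt spheres, and the less abundant in the spheres of both pools. The ratio of COL6A3 to COL6A2 was 13.3 ± 2.51 in wt 2D, 1.79 ± 0.105 in wt 3D, 0.697 ± 0.0661 in labelled KOs 3D and 0.843 ± 0.174 in KOd 3D. The ratio of COL6A1 to COL6A2 was 0.673 ± 0.0378 in wt 2D and 1.52 ± 0.0173 in wt 3D, and in labelled KOs it overlapped between cultures (1.05 ± 0.155 and 1.1 ± 0.00577). Of 15 two-sided exact permutation tests on these ratios, 14 gave p = 0.10, the smallest that 3 libraries against 3 allow (0.11 after Benjamini-Hochberg adjustment over the 15), and COL6A1 to COL6A2 in labelled KOs gave 0.70. These ratios depend on the gene lengths deposited with the counts and describe mRNA, not chains of protein.

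**Figure D2:**
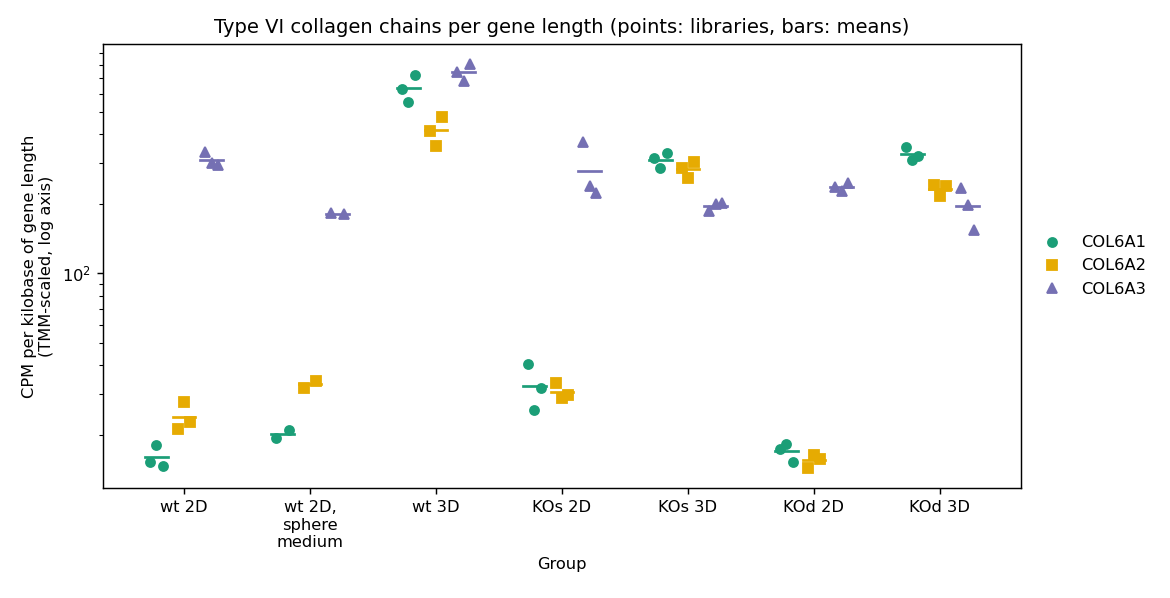
The 3 type VI collagen genes per group, in CPM per kilobase of deposited gene length after TMM scaling, on a log axis. Points are libraries and bars are means. In attached cells COL6A3 lies far above the other 2 genes, in wt spheres the 3 genes come close with COL6A3 at 743 on average, and in the spheres of both pools COL6A3 lies below COL6A1.

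The genes around COL6A1 and COL6A2 on chromosome 21 moved in both directions in wt spheres. Towards the centromere, PCBP3 rose in wt spheres (log2 2.05 ± 0.20, edgeR adjusted p = 1.4e-07), LINC01694 rose (1.17 ± 0.40, adjusted p = 0.016) and SLC19A1, a folate carrier, fell (-1.20 ± 0.20, adjusted p = 4.3e-05). On the other side SPATC1L had -0.33 ± 0.18 (adjusted p = 0.11). LSS, an enzyme of sterol synthesis, had 0.50 ± 0.37 (adjusted p = 0.25), and SNORD159, a small nucleolar RNA gene within the span of LSS, had 1.16 ± 0.76 (adjusted p = 0.19). The values of all 6 neighbours in wt spheres were smaller than those of both collagen genes. In labelled KOs spheres SNORD159 rose by 4.73 ± 0.81 (edgeR adjusted p = 6.8e-05), a larger value than those of COL6A1 and COL6A2 there, and in KOd spheres LSS rose by 2.01 ± 0.39 (adjusted p = 1.9e-04).

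The summed level of genes used as fibroblast markers was higher in spheres than in attached cells of wt and both pools, as was that of COL6A1 and of COL6A2. COL6A3 rose in wt spheres and had -0.28 ± 0.16 (edgeR adjusted p = 0.14) in those of KOd. In labelled KOs spheres COL6A3 was lower (-0.50), a call lost in 3 of 30 alternative settings. The summed level of PDGFRA, PDGFRB, LUM, DCN, FAP and THY1 was 94.8 to 115 CPM in wt 2D and 1307 to 1665 CPM in wt 3D, with 413 to 434 CPM in attached wt cells in tumorsphere medium. It was 98.9 to 231 CPM in labelled KOs 2D, 494 to 515 CPM in their spheres, 79.8 to 80.9 CPM in KOd 2D and 336 to 412 CPM in KOd 3D. PDGFRA, PDGFRB and DCN reached the highest levels of these markers, but DCN did not follow the sum. It was lower in spheres than in attached cells of wt (40.6 ± 8.12 against 66.1 ± 6.2 CPM) and of KOd (4.16 ± 0.873 against 33.9 ± 4.27 CPM). In labelled KOs it was higher in spheres (132 ± 5.16 against 70 ± 10.3 CPM). Attached wt cells in tumorsphere medium had 307 ± 22 CPM of DCN. THY1 was at or below 0.0732 CPM and LUM at or below 5.65 CPM in all libraries. The summed endothelial markers (PECAM1, CDH5, VWF and KDR) were also higher in the spheres of wt (50.6 to 73.3 against 7.45 to 10.8 CPM) and KOd (90.2 to 97.4 against 6.69 to 8.37 CPM), and overlapped between cultures in labelled KOs (31.1 to 36.2 and 8.32 to 41.8 CPM). PECAM1 reached 97.1 CPM and KDR 29.1 CPM, while CDH5 was at or below 0.105 CPM in all libraries. The summed leukocyte markers were higher in the spheres of labelled KOs (188 to 199 against 63 to 105 CPM) and lower in those of wt (18 to 20.4 against 24.1 to 31.9 CPM) and KOd (32.1 to 35.2 against 42 to 50.2 CPM). CD68 ranged from 15.7 to 194 CPM, PTPRC was at or below 2.44 CPM and CD3E at or below 0.0611 CPM. The part of these markers in the collagen results was not tested.

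COL7A1 (Entrez 1294, chromosome 3, 48564073 to 48595329) encodes the chain of the anchoring fibrils. It had 76.8, 88 and 72.3 CPM in wt 2D and 653, 545 and 630 CPM in wt 3D. Labelled KOs had 55.4, 28.4 and 37.1 CPM in 2D and 192, 218 and 268 CPM in 3D. KOd had 62.3, 76.3 and 69.8 CPM in 2D and 324, 237 and 269 CPM in 3D. It rose in the spheres of wt and both pools, and the pools' spheres overlapped each other well below wt spheres. The log2 fold changes from 2D to 3D were 2.95 ± 0.20 in wt (adjusted p = 9.2e-10), 2.49 ± 0.19 in labelled KOs (adjusted p = 9.3e-09) and 2.00 ± 0.19 in KOd (adjusted p = 6.3e-08, edgeR). The KOd response was smaller than that of wt by -0.95 ± 0.26 (adjusted p = 0.011), and the labelled KOs response differed by -0.46 ± 0.26 (adjusted p = 0.18). Against wt in spheres, COL7A1 was 2.7-fold lower in labelled KOs (log2 -1.43 ± 0.19, edgeR adjusted p = 3.9e-06) and 2.2-fold lower in KOd (-1.14 ± 0.18, adjusted p = 1.1e-04). In 2D labelled KOs were lower than wt by -0.97 ± 0.19 (adjusted p = 3.0e-04), while KOd and wt overlapped (-0.19 ± 0.18, adjusted p = 0.44). A microRNA gene, MIR711, overlaps COL7A1 and had at most 155 counts in a library, against at least 1059 for COL7A1.

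COL8A1 (Entrez 1295, chromosome 3, 99638594 to 99799217), a chain of the short-chain network collagen, was the member that fell in the spheres of wt, labelled KOs and KOd alike. Its level was 651, 632 and 721 CPM in wt 2D and 99, 92.3 and 117 CPM in wt 3D. Labelled KOs had 651, 464 and 381 CPM in 2D and 201, 199 and 200 CPM in 3D. KOd had 319, 320 and 285 CPM in 2D and 52.2, 44.8 and 53 CPM in 3D. No sphere library overlapped an attached one, and the order in spheres was labelled KOs, wt, KOd without overlap. The log2 fold changes were -2.70 ± 0.15 in wt (adjusted p = 1.0e-10), -1.32 ± 0.14 in labelled KOs (adjusted p = 5.1e-07) and -2.62 ± 0.15 in KOd (adjusted p = 1.2e-10, edgeR). The response of labelled KOs differed from that of wt by 1.38 ± 0.20 (adjusted p = 6.1e-05), and that of KOd by 0.07 ± 0.20 (adjusted p = 0.82). COL8A1 was lower in KOd than in wt by a similar amount in both cultures, 2.17-fold in 2D and 2.06-fold in 3D (log2 -1.12 ± 0.14 and -1.04 ± 0.14, edgeR adjusted p = 6.3e-06 and 2.2e-05). Labelled KOs were 1.95-fold higher than wt in spheres (log2 0.96 ± 0.14, adjusted p = 1.9e-05). In 2D they were lower by -0.42 ± 0.14 (adjusted p = 0.018) with overlapping libraries, a call that did not pass without labelled KOs 2D replicate B (-0.37), labelled KOs 2D replicate C (-0.26) or wt 2D replicate C (-0.36), and was -0.66 without labelled KOs 2D replicate A.

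**Figure D3:**
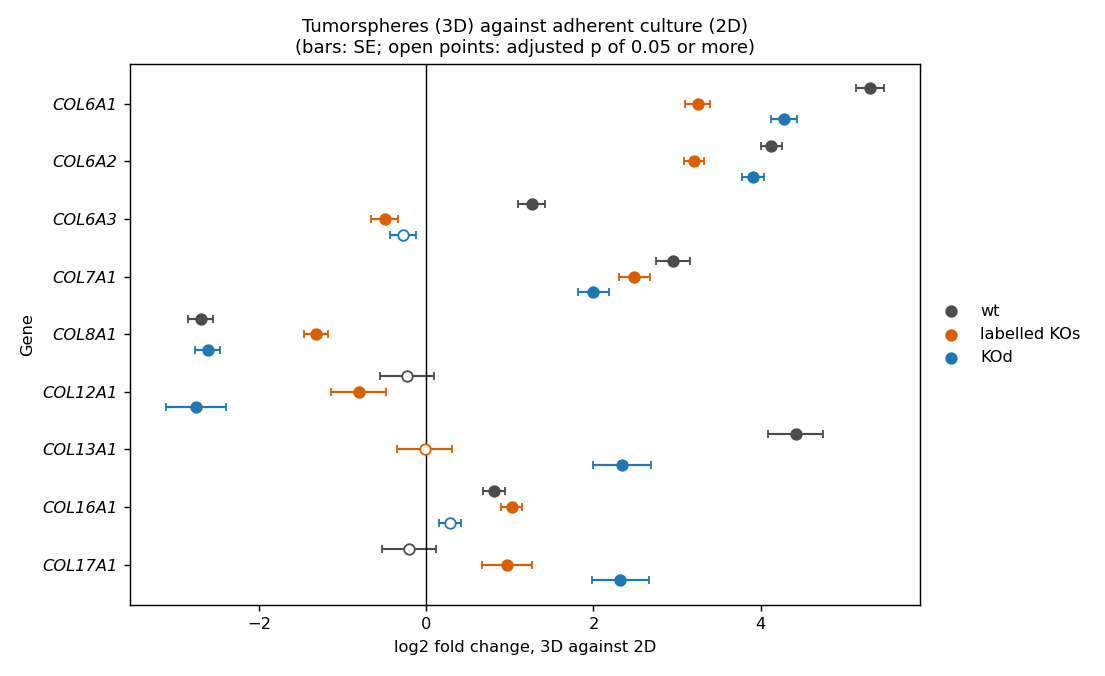
Log2 fold change of each gene from attached culture to tumorspheres in wt, labelled KOs and KOd. Bars are SE of the edgeR fit and open points have an adjusted p of 0.05 or more. COL6A1, COL6A2 and COL7A1 lie far to the right in wt and both pools and COL8A1 to the left, while COL13A1 ranges from 4.42 in wt to -0.02 in labelled KOs.

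COL12A1 (Entrez 1303, chromosome 6, 75084326 to 75206053) encodes the chain of type XII, which links collagen I fibrils to their surroundings. It had 365, 332 and 564 CPM in wt 2D and 364, 366 and 345 CPM in wt 3D. Labelled KOs had 43.1, 16.2 and 15 CPM in 2D and 13.5, 14.5 and 14.7 CPM in 3D. KOd had 42.9, 38.5 and 35.3 CPM in 2D and 7.15, 7.19 and 2.8 CPM in 3D. The wt libraries of both cultures in their own media stood above every pool library, and replicate A of labelled KOs 2D stood above its other two replicates. In spheres the log2 difference from wt was -4.66 ± 0.37 in labelled KOs (25.3-fold lower, adjusted p = 9.7e-09) and -5.96 ± 0.40 in KOd (62.4-fold lower, adjusted p = 4.3e-09), by edgeR. In 2D the levels were 16.9-fold and 10.8-fold lower (log2 -4.08 ± 0.36 and -3.43 ± 0.35, edgeR adjusted p = 6.7e-08 and 4.6e-07). Without labelled KOs 2D replicate A the former value was -4.75. Between cultures COL12A1 fell 6.77-fold in KOd (log2 -2.76 ± 0.36, adjusted p = 2.9e-06), with -0.23 ± 0.32 in wt (adjusted p = 0.54) and an interaction of -2.53 ± 0.47 (adjusted p = 6.5e-04). In labelled KOs the sphere difference was -0.81 ± 0.33 (adjusted p = 0.04). Without labelled KOs 2D replicate A it was -0.14 and did not pass, and 10 of 30 alternative settings lost this call. The interaction for labelled KOs was -0.58 ± 0.46 (edgeR adjusted p = 0.34), and 0.09 without the same library.

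COL16A1 (Entrez 1307, chromosome 1, 31652263 to 31704017), the other fibril-associated gene, moved little by comparison. It had 105, 116 and 121 CPM in wt 2D and 187, 160 and 254 CPM in wt 3D. Labelled KOs had 71.1, 62.4 and 60.6 CPM in 2D and 124, 123 and 147 CPM in 3D. KOd had 69.9, 69.8 and 64.6 CPM in 2D and 92, 73.2 and 82.9 CPM in 3D. Each pool lay below wt in each culture without overlap. The log2 fold change in spheres was 0.81 ± 0.13 in wt (adjusted p = 4.3e-05), 1.02 ± 0.13 in labelled KOs (adjusted p = 3.8e-06) and 0.28 ± 0.13 in KOd (adjusted p = 0.073), by edgeR, the last passing in 6 of 30 alternative settings. The KOd response differed from that of wt by -0.53 ± 0.19 (adjusted p = 0.042), but 13 of 30 alternative settings lost this call, and without wt 3D replicate C the value was -0.33. Against wt, labelled KOs had -0.82 ± 0.13 in 2D and -0.61 ± 0.13 in 3D, and KOd had -0.74 ± 0.13 and -1.28 ± 0.13 (edgeR adjusted p = 6.3e-05, 8.1e-04, 2.0e-04 and 8.9e-07).

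COL13A1 (Entrez 1305, chromosome 10, 69801906 to 69959144) encodes a transmembrane collagen known from cell-matrix junctions. Its level was 6.55, 5.66 and 7.49 CPM in wt 2D and 183, 171 and 69.4 CPM in wt 3D. Labelled KOs had 3.82, 3.7 and 2.7 CPM in 2D and 2.65, 3.81 and 3.64 CPM in 3D. KOd had 1.99, 2.09 and 1.48 CPM in 2D and 12, 10.4 and 5.78 CPM in 3D. The wt spheres stood far above all other libraries, even in replicate C, and the spheres of labelled KOs overlapped their attached cells. The log2 rise in spheres was 4.42 ± 0.33 in wt (21.5-fold, adjusted p = 3.5e-09) and 2.34 ± 0.35 in KOd (5.08-fold, adjusted p = 1.2e-05), with -0.02 ± 0.33 in labelled KOs (adjusted p = 0.96), by edgeR. The interaction was -4.45 ± 0.45 in labelled KOs (adjusted p = 1.7e-06) and -2.08 ± 0.47 in KOd (adjusted p = 0.0027). In spheres COL13A1 was 41.9-fold lower in labelled KOs (log2 -5.39 ± 0.34, edgeR adjusted p = 6.5e-10) and 14.9-fold lower in KOd (-3.90 ± 0.32, adjusted p = 4.2e-08) than in wt. In 2D it was lower in KOd by -1.82 ± 0.35 (adjusted p = 4.2e-04) and in labelled KOs by -0.94 ± 0.32 (adjusted p = 0.021), the latter not passing without labelled KOs 2D replicate C (-0.80) or wt 2D replicate C (-0.84).

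COL17A1 (Entrez 1308, chromosome 10, 104031286 to 104085880), the hemidesmosomal transmembrane collagen, was the lowest of the 9 per kilobase in wt and was higher in the spheres of both pools than in those of wt. It had 3.37, 3.47 and 3.26 CPM in wt 2D and 3.07, 2.79 and 2.86 CPM in wt 3D. Labelled KOs had 1.46, 5.74 and 4.91 CPM in 2D and 7.69, 7.46 and 8.48 CPM in 3D. KOd had 0.961, 1.05 and 1.45 CPM in 2D and 4.86, 6.13 and 6.3 CPM in 3D. The spheres of both pools lay above the spheres of wt, and attached KOd lay below attached wt. In wt the log2 fold change in spheres was -0.21 ± 0.32 (adjusted p = 0.58), whereas it rose by 0.97 ± 0.30 in labelled KOs (adjusted p = 0.0092) and by 2.32 ± 0.34 in KOd (adjusted p = 1.1e-05), by edgeR. The value for labelled KOs was 0.56 without their 2D replicate A. The KOd response exceeded that of wt by 2.53 ± 0.47 (adjusted p = 5.8e-04). For labelled KOs this difference was 1.18 ± 0.44 (adjusted p = 0.043), a call lost in 15 of 30 alternative settings. Against wt in spheres, labelled KOs were 2.71-fold higher (log2 1.44 ± 0.31, edgeR adjusted p = 7.2e-04) and KOd 1.98-fold higher (0.99 ± 0.31, adjusted p = 0.02). The KOd value did not pass without wt 3D replicate B (0.96), KOd 3D replicate B (0.94) or KOd 3D replicate C (0.92). In 2D KOd was 2.91-fold lower than wt (log2 -1.54 ± 0.35, adjusted p = 0.0014), and labelled KOs had 0.26 ± 0.31 (adjusted p = 0.51), which was 0.66 and passed without their replicate A.

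Counted over the 9 genes, the pools were lower than wt more often than higher. These comparisons share the wt libraries of each culture, so their results are not independent of each other. In 2D labelled KOs were higher for 2 genes and lower for 5, beside 27.7% and 25.5% of all genes, with a median of -0.42 against 0.06 over all genes. The count of 7 fell to 4 without wt 2D replicate C. KOd in 2D was lower for 6 and higher for 0, beside 22.5% and 22.1%, with medians of -0.74 and 0.01. At an unadjusted p under 0.05 in that edgeR fit, and by DESeq2 and limma-voom, the count of higher genes was also 0. In spheres labelled KOs were higher for 2 genes (COL8A1 and COL17A1) and lower for 7, beside 27.8% and 28.5%, with medians of -1.03 and 0.02. KOd in spheres was higher for COL17A1 alone and lower for the other 8, beside 16.5% and 17.5%, with medians of -1.14 and 0.00. Under scaling by library totals alone the calls over all genes were 4490 higher and 2842 lower for KOd in 2D, 6039 and 3538 for labelled KOs in 3D and 4199 and 1793 for KOd in 3D, with median shifts of 0.11, 0.16 and 0.16, while the counts of the 9 genes in these 3 comparisons kept the values given.

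**Figure D4:**
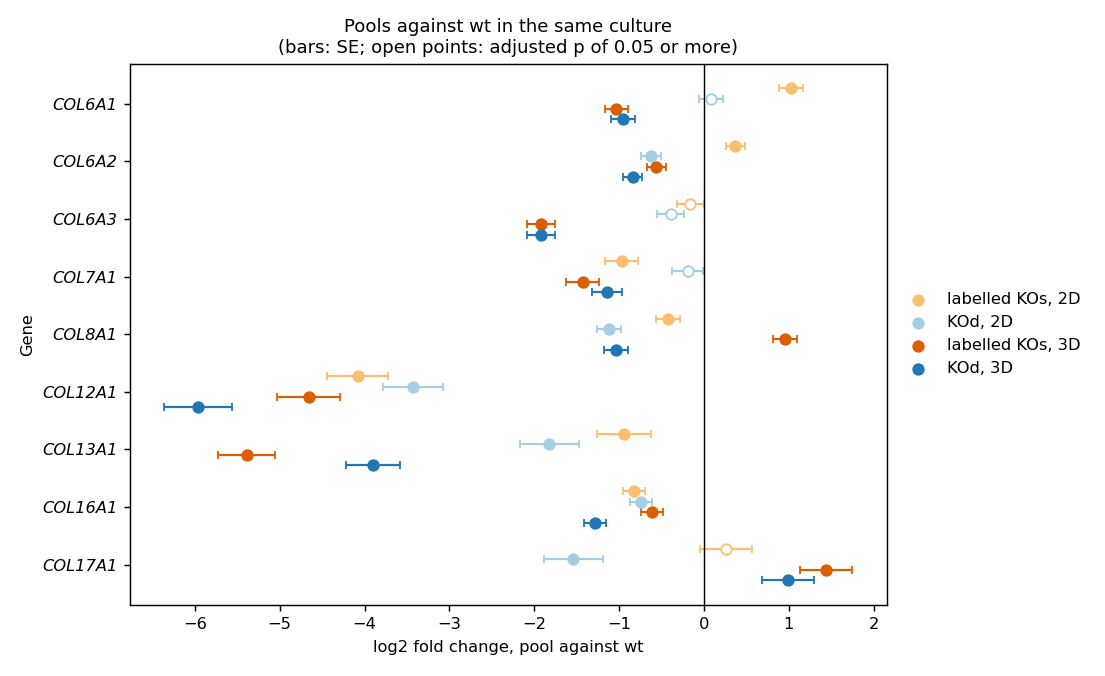
Log2 fold change of each pool against wt in the same culture, with SE bars from the edgeR fit; open points have an adjusted p of 0.05 or more. COL12A1 lies between -5.96 and -3.43 in all 4 comparisons, COL13A1 reaches -5.39 and -3.90 in spheres, and COL17A1 is the gene that lies above 0 in the spheres of both pools.

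The sphere responses of the pools were also compared with that of wt. For labelled KOs against wt, 2 genes had a more positive response and 4 a more negative one, beside 17.9% and 19.0% of all genes, with medians of -0.58 and -0.03. Scaling by library totals gave 4333 and 1899 over all genes for this contrast, with a median shift of 0.21. For KOd against wt, 1 gene had a more positive response and 6 a more negative one, beside 14.4% and 14.7%, with medians of -0.95 and 0.01. Both contrasts use the same wt libraries.

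The pools were then compared with each other. In 2D KOd was higher than labelled KOs for 1 gene and lower for 5, beside 28.8% and 30.7% of all genes, with medians of -0.69 and -0.03. Library totals alone gave 5711 higher and 3844 lower over all genes there, with a median shift of 0.15, and 1 and 4 of the 9. COL6A1 (-0.95 ± 0.14, edgeR adjusted p = 1.6e-05) and COL6A2 (-0.99 ± 0.12, adjusted p = 1.0e-06) were lower in attached KOd. COL17A1 was lower by -1.80 ± 0.34 (adjusted p = 1.9e-04) and COL7A1 higher by 0.79 ± 0.19 (adjusted p = 0.0014). COL13A1 had -0.88 ± 0.36 (adjusted p = 0.044), a call lost in 8 of 30 alternative settings. COL12A1 had 0.65 ± 0.33 (adjusted p = 0.096), and 1.32, which passed, without labelled KOs 2D replicate A. In 3D KOd was higher for 1 gene and lower for 4, beside 23.9% and 23.3%, with medians of -0.28 and -0.01. There COL8A1 was 4.01-fold lower in KOd (log2 -2.00 ± 0.15, edgeR adjusted p = 1.1e-08) and COL12A1 2.47-fold lower (-1.30 ± 0.35, adjusted p = 0.0057), while COL13A1 was 2.8-fold higher (1.49 ± 0.32, adjusted p = 8.7e-04). COL16A1 was lower by -0.67 ± 0.13 (adjusted p = 4.9e-04). COL6A2 had -0.28 ± 0.11 (adjusted p = 0.049) and lost the call in 15 of 30 alternative settings. COL6A1 (0.08 ± 0.14, adjusted p = 0.67) and COL6A3 (0.00 in size, SE 0.16, adjusted p = 0.99) overlapped between the spheres of the pools.

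The tumorsphere medium was tested on attached wt cells in 2 libraries, which separates it in part from the change of culture. Those cells met the medium from 50% to 80% confluency, whereas spheres grew in it for 2 rounds of 6 days. Spheres and attached cells also differed in extraction kit. The parts of exposure time and kit were not tested. The medium alone gave 1 gene higher and 3 lower than the 2D medium, beside 15.6% and 16.4% of all genes, with medians of -0.22 and 0.00. With the compared groups fitted alone, 8 of the 9 passed in place of 4, and without replicate B of the medium group 2 passed. COL12A1 was at 85.3 and 83.3 CPM in this medium, below all 3 wt 2D libraries, a log2 fall of -2.32 ± 0.39 (4.98-fold, edgeR adjusted p = 2.1e-04). COL6A3 was at 1944 and 1937 CPM (log2 -0.78 ± 0.18, adjusted p = 0.0038), and COL13A1 at 2.98 and 2.28 CPM (-1.32 ± 0.39, adjusted p = 0.016). COL6A2 rose to 139 and 148 CPM (0.47 ± 0.13, adjusted p = 0.0088). Leaving out replicate B of the medium group lost the calls of COL6A2 (0.41) and COL13A1 (-1.15), and leaving out replicate A lost that of COL13A1 (-1.53). With a single library left in that group the fit assumes that it varies like the other groups. COL6A1 was at 82.1 and 88.5 CPM (0.34 ± 0.16, adjusted p = 0.11), COL7A1 at 68.5 and 67.4 CPM and COL8A1 at 543 and 574 CPM, none of which passed. COL16A1 had 137 and 128 CPM and COL17A1 3.86 and 3.54 CPM, also without passing.

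Against attached cells in the same medium, wt spheres were higher for 7 of the 9 genes and lower for 1, beside 32.8% and 30.0% of all genes, with medians of 2.09 and 0.05. COL13A1 rose 53.5-fold (log2 5.74 ± 0.43, edgeR adjusted p = 4.8e-09) and COL6A1 31.4-fold (4.97 ± 0.20, adjusted p = 2.2e-12). COL6A2 rose 12.6-fold, COL7A1 8.97-fold, COL6A3 4.1-fold and COL16A1 1.51-fold. COL12A1 rose 4.25-fold (2.09 ± 0.38, adjusted p = 1.4e-04), so that its levels in wt spheres and in wt 2D overlapped while the medium group lay below both. COL8A1 fell 5.43-fold (-2.44 ± 0.16, adjusted p = 9.2e-10), and COL17A1 had -0.35 ± 0.35 (adjusted p = 0.41). This comparison and the one between the media share the 2 libraries of the medium group.

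**Figure D5:**
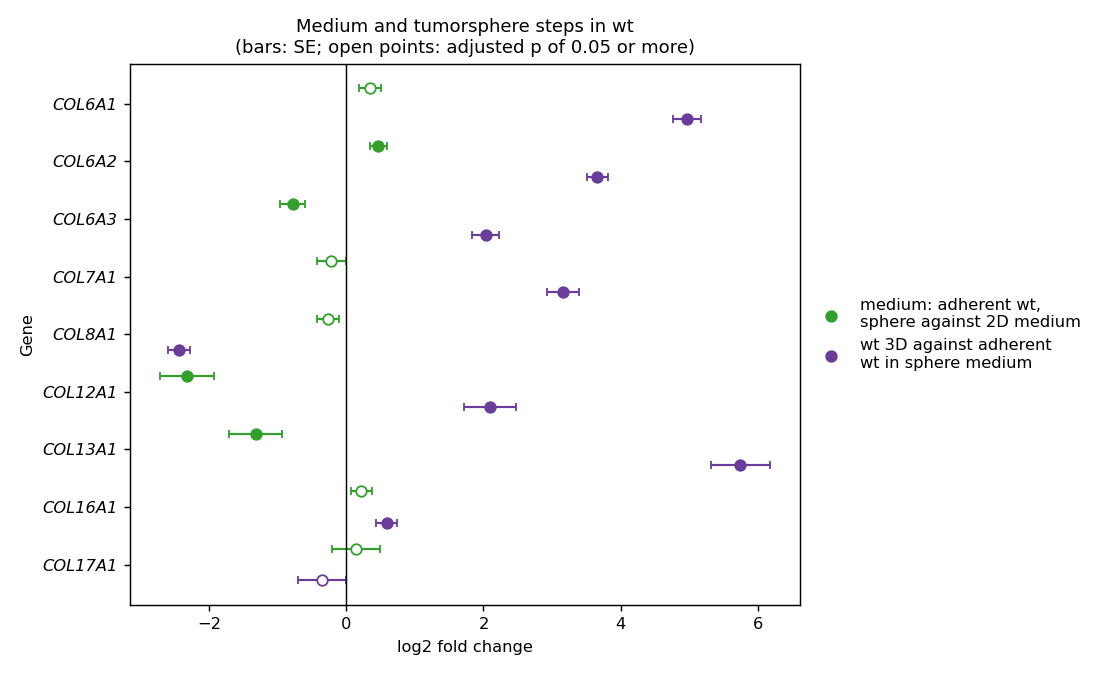
Log2 fold change of each gene for attached wt cells moved to tumorsphere medium (green) and for wt spheres against those cells (purple), with SE bars from the edgeR fit; open points have an adjusted p of 0.05 or more. For COL6A3, COL12A1 and COL13A1 the first step lies below 0 and the second above 0, while COL6A1, COL6A2 and COL7A1 lie between -0.22 and 0.47 in the first step and between 3.16 and 4.97 in the second.

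Genes that work with these collagens were counted from 6 lists. For the sphere responses, the shares of all genes higher and lower were 33.3% and 30.4% in wt. They were 32.9% and 32.1% in labelled KOs, and 35.2% and 31.2% in KOd. Against wt they were 27.8% and 28.5% for labelled KOs 3D, 16.5% and 17.5% for KOd 3D and 22.1% and 22.5% for KOd 2D. The counts of the lists were not tested against these shares. Of 16 tested matrix partners of types VI and XII (fibrillar collagens, small proteoglycans, fibrillins and tenascins), 15 rose and 1 fell in wt spheres, with a median log2 fold change of 2.98. In labelled KOs 12 rose and the other 4 did not pass (median 0.82), and in KOd 10 rose and 1 fell (median 1.95). In spheres 11 of the 16 were lower in labelled KOs than in wt and 12 in KOd, with 2 and 1 higher and medians of -1.39 and -1.53. TNXB, a tenascin, rose from 0.503 ± 0.0804 to 11.9 ± 0.742 CPM in wt spheres (log2 4.55 ± 0.27, edgeR adjusted p = 2.0e-10) and to 10.1 ± 0.574 and 9.98 ± 1.27 CPM in those of labelled KOs and KOd. COL1A1, the main chain of the fibrils that type XII binds, was 4333 ± 992 CPM in wt spheres, 31.8 ± 2.36 in labelled KOs spheres and 77.7 ± 5.68 in KOd spheres (log2 -7.09 ± 0.26 and -5.80 ± 0.24 against wt, edgeR adjusted p = 1.2e-12 and 1.4e-11). DCN, decorin, was lower in KOd spheres than in wt spheres, at 4.16 ± 0.873 against 40.6 ± 8.12 CPM (log2 -3.28 ± 0.17, adjusted p = 1.9e-10). In labelled KOs spheres DCN stood above both, at 132 ± 5.16 CPM, and KOd spheres were lower than these by a log2 difference of -4.98 ± 0.18 (edgeR adjusted p = 3.3e-12).

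Of 14 tested collagen receptors, 8 rose and 2 fell in wt spheres (median 0.70), 9 and 2 in labelled KOs (median 0.88), and 8 and 3 in KOd (median 0.90). ANTXR2, a receptor of type VI collagen, rose from 76.7 ± 6.06 to 293 ± 30 CPM in wt spheres (log2 1.93 ± 0.10, edgeR adjusted p = 2.0e-11). In labelled KOs it stood at 240 ± 20 CPM in 2D and 225 ± 3.11 in 3D, with an interaction of -2.02 ± 0.13 (adjusted p = 1.2e-08). ITGA2, the α2 integrin chain, rose from 79.9 ± 10.2 to 327 ± 16.8 CPM in wt (log2 2.03 ± 0.13, adjusted p = 5.3e-10). CSPG4, a membrane proteoglycan that binds type VI, fell from 315 ± 29.1 to 63.9 ± 9.64 CPM (-2.30 ± 0.15, adjusted p = 7.1e-10). Against wt, ITGB1, the shared β1 chain of the collagen-binding integrins, was lower in both pools and both cultures, with log2 differences from -0.76 ± 0.09 to -0.57 ± 0.09 (edgeR adjusted p of 3.1e-05 or less). ADGRG1 was higher than in wt 2D in attached labelled KOs (2.81 ± 0.29) and KOd (1.83 ± 0.29, edgeR adjusted p = 3.9e-07 and 6.8e-05). Relative to wt spheres, 3 of the 14 receptors were higher and 7 lower in labelled KOs, and 4 and 5 in KOd. Attached KOd had 4 higher and 3 lower. Attached labelled KOs had 5 higher and 4 lower, beside 27.7% and 25.5% of all genes.

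Among 11 hemidesmosome and anchoring genes, 6 rose and 2 fell in wt spheres (median 1.01) and 7 and 2 in KOd (median 0.63). In labelled KOs 5 rose and 2 fell while the median was -0.12, so count and median differ in sign. LAMB3, the β3 chain of laminin-332, was higher in labelled KOs spheres than in wt spheres, at 387 ± 17.2 against 107 ± 14.8 CPM (log2 1.85 ± 0.19, edgeR adjusted p = 1.9e-07). ITGB4, the hemidesmosomal integrin chain, was at 117 ± 7.56 CPM in KOd 2D and 17.4 ± 4.85 in wt 2D (2.74 ± 0.44, adjusted p = 7.3e-05). More of the 11 were lower than higher in these comparisons with wt, 5 and 2 in labelled KOs 3D and 4 and 2 in KOd 2D.

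Of the 20 genes of collagen folding and export, 6 were higher and 5 lower in wt spheres (median 0.14), beside 33.3% and 30.4% of all genes. In labelled KOs 4 were higher and 10 lower (median -0.29). In KOd spheres 4 were higher and 7 lower (median -0.01). Against wt, 14 of 20 were lower and 1 higher in KOd 2D (median -0.44), 12 and 1 in KOd 3D (median -0.55), and 11 and 1 in labelled KOs 3D (median -0.27). PLOD2, a lysyl hydroxylase of collagen crosslinking, went from 178 ± 7.16 CPM in wt 2D to 52 ± 4.24 in labelled KOs 2D (log2 -1.78 ± 0.09, edgeR adjusted p = 1.0e-10) and 124 ± 8.55 in KOd 2D (-0.52 ± 0.09, adjusted p = 1.3e-04). P3H2, a prolyl 3-hydroxylase, was 110 ± 13.6 CPM in wt spheres and 21 ± 0.726 in labelled KOs spheres (-2.39 ± 0.12, adjusted p = 4.5e-11).

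Of 14 enzymes that process or shed collagens, 8 rose and 3 fell in wt spheres (median 0.43), 8 and 2 in labelled KOs (median 0.31) and 7 and 2 in KOd (median 0.45). MMP14, a membrane-bound collagenase, rose in wt and both pools, from 48.7 ± 8.1 to 431 ± 21.3 CPM in wt (log2 3.14 ± 0.24, edgeR adjusted p = 6.1e-09), to 825 ± 23.7 in labelled KOs and to 732 ± 34.8 in KOd. LOX, a crosslinking lysyl oxidase, was at 37.4 ± 18.3 CPM in wt spheres, 1.01 ± 0.102 in labelled KOs spheres and 1.71 ± 0.323 in KOd spheres (-5.21 ± 0.37 and -4.45 ± 0.36, adjusted p = 2.5e-09 and 3.6e-08). ADAMTS2 went the other way, at 3.81 ± 1.56, 80.1 ± 0.503 and 29.1 ± 0.731 CPM in the same order. Its log2 differences from wt were 4.40 ± 0.28 and 2.93 ± 0.27 (edgeR adjusted p = 6.5e-10 and 1.8e-07). Relative to wt spheres, 3 of the 14 enzymes were higher and 7 lower in labelled KOs (median -0.34), and 4 and 7 in KOd (median -0.20). The other 19 collagens listed are non-fibrillar except for COL27A1, a fibrillar collagen. Of these 19, 11 were tested, COL27A1 among them. In wt spheres 9 rose and 2 fell (median 2.41). In labelled KOs 8 rose and the other 3 did not pass (median 2.30), and in KOd 6 rose and 2 fell (median 1.87). COL18A1, a basement membrane collagen, rose from 83.3 ± 12.8 to 323 ± 77.2 CPM in wt spheres (1.95 ± 0.16, adjusted p = 1.8e-08). It was lower in the spheres of labelled KOs (103 ± 7.46 CPM) and of KOd (180 ± 21.7 CPM) than in those of wt, with log2 differences of -1.65 ± 0.16 and -0.84 ± 0.16 (edgeR adjusted p = 1.4e-07 and 5.0e-04). COL28A1 fell from 3.87 ± 0.6 to 0.121 ± 0.091 CPM in wt spheres (-4.93 ± 0.38, adjusted p = 6.1e-09). Compared with wt spheres it was higher in spheres of labelled KOs, at 4.25 ± 0.083 CPM, and of KOd, at 0.842 ± 0.27 CPM. The log2 differences were 5.07 ± 0.38 and 2.75 ± 0.43 (edgeR adjusted p = 4.5e-09 and 8.0e-05). Relative to wt spheres, 5 of the 11 were higher and 6 lower in labelled KOs (median -1.65), and 3 and 4 in KOd (median -0.35).

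Over the 20 libraries, which share 1 cell line and fall into culture groups, the log2 levels of COL6A1 and COL6A2 had a Pearson correlation of 0.988. With COL7A1 the value was 0.911 for COL6A1 and 0.909 for COL6A2. COL6A3 followed neither closely and had its highest value among the 9 with COL13A1, at 0.839. COL6A1 and COL8A1 ran opposite, at -0.843. Among 11241 expressed genes outside the 9, the most alike were ARHGEF3 (0.987) and ARRB1 (0.985) for COL6A1, GEM (0.984) and CMKLR1 (0.983) for COL6A2, and F2RL1 (0.951) and ANTXR1 (0.918) for COL6A3. For COL7A1 they were TMEM87B (0.973) and SULF2 (0.969), for COL8A1 ITGA5 (0.972) and NCAPD2 (0.971), and for COL12A1 GPSM2 (0.967) and STRN (0.915). For COL13A1 they were UBE2E3 (0.951) and SNX19 (0.929), for COL16A1 FKBP10 (0.909) and HTATIP2 (0.904), and for COL17A1 WRNIP1 (0.926) and KLHL21 (0.912). ANTXR1, listed with the receptors, had 182 ± 11.2 CPM in wt 2D and 238 ± 16 in wt 3D, and 135 ± 4.06 and 150 ± 4.15 in the spheres of labelled KOs and KOd.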

How the data were processed

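The authors deposited 1 table of read counts per Entrez gene for the 20 libraries, with gene lengths beside it; alignment used STAR and hg38, per the submitters' processing notes. The counting tool, its strand setting and the annotation are not given in the sources used here. No normalization was applied to these whole-number counts before deposit, and 27740 of 27864 rows were matched to symbols. Library sizes were scaled by TMM after filtering with filterByExpr, and edgeR 4.0.16 (R 4.3.3) fitted the quasi-likelihood model with a mean for each of the 7 groups over the 20 libraries (13 residual degrees of freedom, biological coefficient of variation 0.143). An adjusted p (Benjamini-Hochberg over the 16323 genes) under 0.05 counted as passed. The script was tested on simulated data. Log2 CPM for correlations used a prior count of 2, and levels between genes were divided by the deposited length. Totals of 26396964 to 43744817 counts leave at least 28 counts in each library for the least abundant of the 9 genes.

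The genes and lists were chosen with earlier results of these data known. All 9 genes are described in every group; up to 3 genes with the smallest adjusted p per list and comparison were allowed to be named, and for likeness the 2 genes with the highest correlation. Alternatives covered scaling (RLE, library totals), filters, DESeq2 1.42.0, limma-voom (limma 3.58.1), the compared groups alone, ribosomal RNA genes left out, the replicate letter as a block, and each library left out. Replicate letters are not stated to mark a shared batch. Deviations from group means correlated between wt 3D and KOd 3D libraries of the same letter at 0.2098, 0.2182 and 0.3422. They did not reach 0.1 in every same-letter pair between any other 2 groups. However, wt 3D B with KOd 3D A gave 0.2077 and wt 3D A with KOd 3D B 0.1251, so the letters do not set A and B apart. Pairs of C with A or B gave -0.2997 to -0.2205, and C was the most distant library in both groups. A pairing by letter in wt 3D and KOd 3D is thus not established. With the block in a fit of these 2 groups, all 9 genes passed as without it.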

Additional observations from a re-analysis of the deposited data

Results flagged for a closer look

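For 13 results the response to tumorsphere culture differed between a pool and wt by the interaction term in edgeR, each value being the log2 change from 2D to 3D in the pool minus that in wt. In labelled KOs the response was more negative for COL6A1 (-2.06), COL6A2 (-0.93), COL6A3 (-1.76) and COL13A1 (-4.45), and more positive for COL8A1 (1.38) and COL17A1 (1.18). In KOd it was more negative for COL6A1 (-1.03), COL6A3 (-1.53), COL7A1 (-0.95), COL12A1 (-2.53), COL13A1 (-2.08) and COL16A1 (-0.53), and more positive for COL17A1 (2.53). Both sets of values are taken against the same wt libraries. The COL17A1 value in labelled KOs and the COL16A1 value in KOd lost their calls in 15 and 13 of 30 alternative settings. No group of 4 or more libraries exists here, so single libraries were not tested as outliers.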

How the results depend on the processing

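Of 3519 alternative values, 3377 kept their direction and their side of the threshold, 82 no longer passed, 37 passed newly and 23 changed sign. Of the 23, none had passed in the reported fit. With the compared groups alone, 5 of the 9 genes passed in labelled KOs 3D against 2D (8 reported) and 8 with the medium (4 reported). Leaving out 1 library at a time gave 4 to 9 genes for labelled KOs against wt in 2D (7 reported), and 2 to 5 genes and 2752 to 6585 of all genes for the medium (4 and 5224 reported; 3192 without replicate A of the medium group). Without 3 libraries (replicate A of attached labelled KOs and replicate C of the wt and of the KOd spheres), a setting chosen after seeing the data, 7968 of all genes passed for the medium, and 6 to 9 of the 9 genes passed in each of the 13 comparisons, against 4 to 9 in the reported fit.

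Sign changes were as follows. COL13A1 in labelled KOs 3D against 2D was 0.19 under library totals, 0.07 without the 3 libraries and -0.16 to 0.12 with 1 library left out. COL6A3 in KOd against labelled KOs was 0.00 under RLE, the strict filter and DESeq2, 0.01 with the compared groups alone, 0.14 without the 3 libraries and -0.15 to 0.14 with 1 library left out in 3D, and 0.04 and -0.37 to 0.04 in 2D. COL17A1 in labelled KOs against wt in 2D was -0.01 with limma-voom and -0.09 to 0.66 with 1 library left out. COL12A1 ranged from -0.37 to 0.04 in wt 3D against 2D with 1 library left out, and in the labelled KOs interaction from -0.85 to 0.09, with 0.07 without the 3 libraries. The cause was not tested.

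In the fit of all 7 groups with a replicate block by letter, COL13A1 in labelled KOs 3D against 2D was 0.02, COL12A1 there was -0.74 and no longer passed, COL6A2 in KOd against labelled KOs in 3D was -0.28 and no longer passed, and COL6A3 in KOd against wt in 2D was -0.38 and passed. The block changed no other call of the 9 genes. In the fit of wt 3D and KOd 3D alone, 9 genes passed with the block. Each of the 9 genes had at least 28 counts in every library, and the effect of depth was not tested. The medium group is limited by its 2 libraries.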
